A study of Mus musculus with 5 samples.

Results

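Ghrelin, the enzyme that acylates it and the receptor for the acylated hormone are the 3 genes described here: Ghrl, Mboat4 and Ghsr. They were chosen by name as hormone, acyltransferase and receptor of 1 signalling route. The bulk table, of 22042 genes, listed 2 of the 3, Ghrl and Mboat4, and the droplet reference held all 3. No filter on low values was applied, and Ghsr was missing from the bulk table as deposited.

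The study sorted reporter-labelled cells from the small intestine epithelium of C57Bl/6J mice and read their RNA. A droplet library came from tdTomato+ cells of 4 pooled Neurog3-Cre; R26-LSL-tdTomato mice aged 6 weeks, with no treatment. Bulk libraries came from tdTomato+ cells, called CCK+, and tdTomato- epithelial cells, called CCK-, of Cck-Cre; R26-LSL-tdTomato mice aged 6 to 8 weeks. Overnight fasting alone was given to 3 of the 6 mice, named A, B and F, and fasting followed by the liquid diet Ensure to C, D and E, and each letter names 1 CCK+ and 1 CCK- library. Libraries that share a letter were taken as 1 mouse, which the public record does not state, and results within mice rest on this. The 4 bulk groups of 3 libraries were therefore CCK+ fasted, CCK+ refed, CCK- fasted and CCK- refed, all of the Cck-Cre genotype. The droplet group, Neurog3+, had 1 library.

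As models these groups have limits. Cre recombination is permanent, so tdTomato marks cells whose ancestors expressed the driver as well as cells that express it at the time. Neurog3 is expressed in endocrine progenitors, some of which give rise to other epithelial types. Cck is also expressed in enteric neurons and in several types of enteroendocrine cell. Pooling 4 mice in 1 droplet library leaves no measure of the spread between animals there.

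Ghrelin is a peptide hormone made mostly in the stomach and, at lower levels, by enteroendocrine cells of the proximal intestine. MBOAT4, also called ghrelin O-acyltransferase, attaches a medium-chain fatty acid, usually octanoate, to a serine near the start of the peptide, and this acylation is needed for ghrelin to activate its receptor GHSR. The prohormone is cleaved by the convertase PCSK1, plasma enzymes such as butyrylcholinesterase remove the acyl group, and LEAP2 is a peptide that blocks the receptor. GHSR acts mainly in the brain, the pituitary gland and vagal sensory neurons, and circulating ghrelin is known to be higher in fasting than after meals.

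The sequences shown are the coding stretch of the peptide that MBOAT4 acts on and the promoter of Ghrl. Of the members in the bulk table, Ghrl was the one that differed more between CCK+ and CCK- cells. Ghrl (ENSMUSG00000064177) lies at chr6:113716119-113719880 on the minus strand of GRCm38, Mboat4 (ENSMUSG00000071113) at chr8:34115030-34125182 on the plus strand and Ghsr (ENSMUSG00000051136) at chr3:27371351-27378010 on the plus strand. The 28 codons of mature ghrelin fill 84 bases in exons 2 and 3 of the 5 exons of transcript Ghrl-201, between chr6:113719182-113719360 on the minus strand. The capitals mark codon 3, in exon 2 at chr6:113719352-113719354, which encodes the serine that carries the acyl group.
ghrelin coding stretch: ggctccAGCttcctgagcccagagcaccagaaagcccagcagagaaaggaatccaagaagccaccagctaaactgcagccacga

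Promoter windows from RefSeq, 300 bases each (250 before and 50 after a gene start, GRCm38.p6), matched 2 of the 3 genes: 4 windows for Ghrl and 1 for Ghsr. Mboat4 was not matched. 3 motifs were searched on both strands. The sequence TATATAA is a form of the TATA box. The sequence CATCTG is an E-box that basic helix-loop-helix factors such as NEUROD1 can bind, and the letters TAATTA form a core bound by many homeodomain factors. TATATAA was in 1 of the 4 Ghrl windows, against 1065 of 32851 windows of all genes (3.24%). CATCTG was in 2 of the 4, against 5635 windows (17.2%), and TAATTA in none, against 1738 windows (5.29%). The Ghsr window held none of the motifs, and a match or its absence is a description of the sequence only. The Ghrl window with TATATAA, in capitals, was chr6:113719862-113720161 on the minus strand, and the match began at base 250 of the window, next to the RefSeq start that defines it, and 32 bases before the start of transcript Ghrl-201.
Ghrl promoter: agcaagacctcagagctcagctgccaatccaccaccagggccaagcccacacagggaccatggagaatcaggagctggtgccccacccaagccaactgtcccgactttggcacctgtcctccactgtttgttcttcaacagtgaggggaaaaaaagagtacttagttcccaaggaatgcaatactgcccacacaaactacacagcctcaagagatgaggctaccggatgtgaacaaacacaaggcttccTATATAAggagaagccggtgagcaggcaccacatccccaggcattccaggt

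Other annotated genes lie over the members. The antisense gene Gm26982, at chr6:113714971-113716121 on the plus strand, overlaps the last bases of Ghrl, Gm44033 lies inside Ghrl at chr6:113718584-113719278 on the plus strand, and Gm39158 lies inside Mboat4 at chr8:34119011-34120208 on the minus strand. None of the 3 was in the bulk table, and only Gm26982 was in the droplet reference. Whether the bulk reads kept their strand was not stated, so a part of Ghrl or Mboat4 counts from these overlaps was not tested.

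Bulk values were gene counts divided by the authors' normalization factors. The 12 libraries summed to between 7061155 and 11371114 normalized counts, which is not a depth in reads, with 16656 to 18855 genes above 0. Normalized counts carry no correction for transcript length, so levels are compared between libraries and not between genes. Tests were two-sided and used limma on log2(normalized count + 1), a scale that understates differences of genes at low counts. Adjusted p-values below 0.05 were called. The limma p-values measure the spread between libraries within groups, pooled over the groups. The main fit had no term for mouse, so the CCK+ and the CCK- library of a mouse counted as separate. A fit with mouse as a block was run as an alternative. A gene that was not called is not shown to be equal between groups.

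The titles of all 4 bulk samples in the public record name CCK+ cells, whereas the cell-type labels give 2 CCK+ and 2 CCK- groups. Cck itself was 14837 to 32592 normalized counts in the 6 CCK+ libraries and 27.6 to 86.0 in the 6 CCK- libraries. The cell-type labels were therefore used.

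Some libraries stood apart in genes other than the members. Pancreatic genes were above 0 in only 2 libraries, with a sum of 267 in CCK+ fasted A (Cpa1) and 518 in CCK+ refed E (Ins1 and Ins2), while Prss1 was not listed. The stomach genes Gkn1 and Tff1 were above 0 in 1 library, CCK- refed D, with a sum of 51.9. CCK+ fasted B had the lowest summed enteroendocrine markers of the CCK+ libraries, 61340 against 100257 to 232238, the highest summed enterocyte markers, 310638 against 125415 to 219646, and the highest immune markers, 9386 against 4101 to 7565. Their part in the results was not tested, and the log2 differences of the members are also given without the libraries with pancreas or stomach genes and without mouse B.

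The choice of scaling mattered for the sort. The authors' factors left the median log2 difference of all genes at 0.09 between CCK+ and CCK- libraries. With each library scaled to the mean sum instead, that median moved up by 0.26, the median of refed against fasted in CCK+ by 0.19 and the median of the interaction of state and sort by 0.12. Among genes called between the sorts, 58.2% were higher in CCK+ as deposited and 84.1% with the mean sum, or 83.8% with each library scaled to a sum of 1000000. Among genes called in refed against fasted CCK+ cells, the share higher was 51.5%, 77.4% and 80.3%.

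Ghrl in the CCK+ libraries was 2924, 999.8 and 2185 normalized counts in the fasted mice A, B and F, and 2992, 2147 and 1140.5 in the refed mice C, D and E. In CCK- cells of the same mice it was 41.6, 9.68 and 14.1 when fasted and 14.4, 27.8 and 16.8 when refed. The lowest CCK+ library was thus above the highest CCK- library, whereas fasted and refed values overlapped in both sorts. In CCK+ cells the spread within a feeding state reached from near 1000 to near 3000, and the lowest libraries were B in the fasted and E in the refed group.

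Mboat4, the acyltransferase, was 8.44, 4.86 and 15.3 normalized counts in CCK+ fasted A, B and F and 13.6, 15.1 and 8.16 in CCK+ refed C, D and E. In CCK- cells it was 0, 2.43 and 7.81 in fasted A, B and F, and 8.88, 0.926 and 1.49 in refed C, D and E. These are values near the limit of the table. In CCK- refed D and E they equalled the most frequent value above 0 in those libraries, shared by 885 and 816 genes. CCK- values of mice F and C lay among the CCK+ values, so the sorts overlapped for Mboat4.

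**Figure D1:**
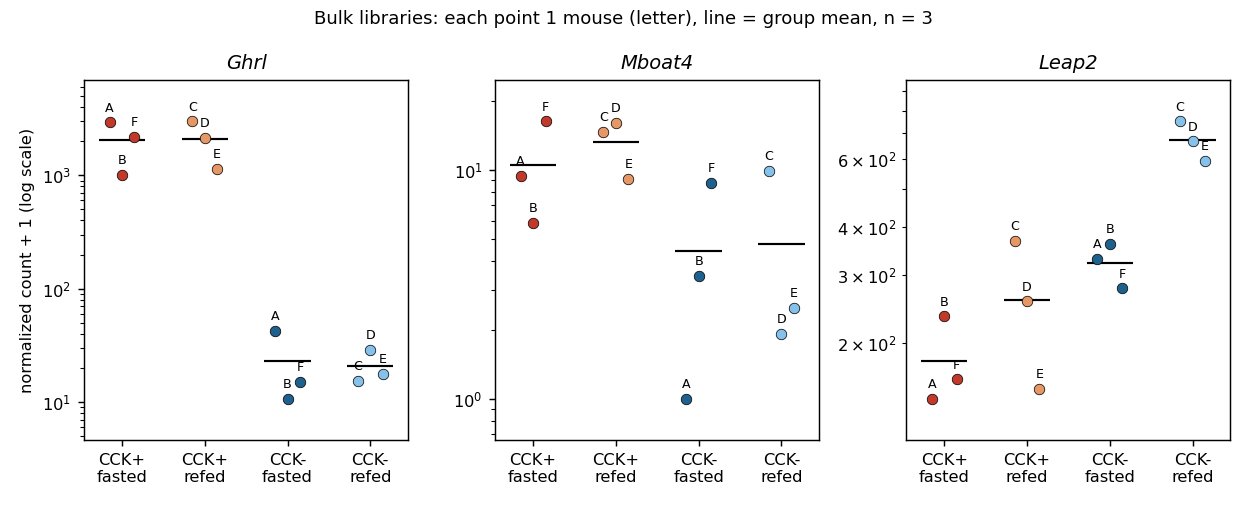
Normalized counts plus 1, on log axes, of Ghrl, Mboat4 and Leap2 in the 12 bulk libraries; each point is 1 mouse (letter) and each line a group mean of 3 mice. Ghrl separated the sorts without overlap and Mboat4 overlapped; Leap2 was not called in refed against fasted in either sort.

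CCK+ against CCK- asks whether a gene is enriched in the cells of the Cck lineage. It called 7431 of 22042 genes (33.7%), 4324 higher in CCK+ (19.6%) and 3107 lower (14.1%), and 2 of the 2 listed members were among the higher ones. Ghrl averaged 2065 in CCK+ and 20.7 in CCK- libraries, a log2 difference of 6.61 (SE 0.36, 95% interval 5.85 to 7.37, limma adjusted p 7.3e-09), or 97.6-fold, with the same direction in 6 of 6 mice. The difference was 6.61 in the fasted and 6.61 in the refed mice. In these bulk samples, fewer ghrelin cells and less Ghrl RNA per cell cannot be told apart. Leaving out any 1 library moved it between 6.40 and 6.90, and the other settings, including those without the libraries that stood apart, between 6.32 and 6.99.

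Mboat4 averaged 10.9 in CCK+ and 3.59 in CCK- libraries. Its log2 difference was 1.74 (SE 0.59, 95% interval 0.48 to 2.99, limma adjusted p 0.0338), or 3.33-fold, again with the same direction in 6 of 6 mice. Within a feeding state it was 1.63 in fasted mice (adjusted p 0.212) and 1.84 in refed mice (adjusted p 0.127), neither of them called.

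The Mboat4 call depended on single libraries. It was kept without CCK+ fasted B (limma adjusted p 0.0390), CCK- fasted F (0.0139) or CCK- refed C (0.0159). It was lost without CCK+ fasted A (0.0786), CCK+ fasted F (0.0934), CCK+ refed C (0.0802), CCK+ refed D (0.0929), CCK+ refed E (0.0551), CCK- fasted A (0.0909), CCK- fasted B (0.0611), CCK- refed D (0.0946) or CCK- refed E (0.0823). Without both libraries of mouse B the limma adjusted p was 0.0658, and without the 3 libraries with pancreas or stomach genes it was 0.192. With mouse as a block it was 0.0263, and over the other scalings, pseudocount and trend it ran from 0.00651 to 0.0405. Its log2 difference stayed above 0 in each of these settings.

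Refed against fasted asks whether a meal after fasting changes a gene's RNA, in CCK+ and in CCK- cells separately. In CCK+ cells limma called 561 genes (2.55%), 289 higher (1.31%) and 272 lower (1.23%). In CCK- cells it called 272 genes (1.23%), 156 higher (0.708%) and 116 lower (0.526%). 0 of the 2 listed members were called in either sort, nor did either have an unadjusted p below 0.05, which 3736 genes had in CCK+ and 2635 in CCK- cells.

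The counts called in these comparisons depended on single libraries. For refed against fasted in CCK+ they were 876 without CCK+ fasted A, 193 without CCK+ fasted B, 351 without CCK+ fasted F, 103 without CCK+ refed D, 183 without CCK+ refed E and 333 without CCK- refed D. With only the 6 CCK+ libraries in the fit limma called 0 genes, with 3190 at an unadjusted p below 0.05, so every CCK+ call on refeeding rests on the spread shared with the CCK- libraries. In CCK- cells the counts ran from 79 without CCK- refed D to 268 without CCK+ fasted B. The count fell by more than 1.5 times in 10 of 12 cases there, the exceptions being CCK+ fasted B and CCK+ fasted A (214).

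For Ghrl the log2 difference of refed against fasted was 0.07 in CCK+ cells (SE 0.50, 95% interval -1.01 to 1.14, limma adjusted p 0.982) and 0.07 in CCK- cells (SE 0.50, 95% interval -1.01 to 1.14, adjusted p 1). The intervals span a halving and a doubling, so changes up to that size cannot be told from none with 3 mice a group. The direction depended on single libraries. In CCK+ cells it was -0.38 without fasted B, -0.25 without refed C and -0.01 without refed D, and in CCK- cells -0.35 without fasted B, -0.10 without fasted F and -0.20 without refed D. Without the 3 libraries with pancreas or stomach genes the Ghrl difference was 0.78 in CCK+ cells (limma adjusted p 0.627), the largest move of any setting, and -0.20 in CCK- cells. Without mouse B it was -0.38 and -0.35.

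For Mboat4 the difference was 0.42 in CCK+ cells (SE 0.83, 95% interval -1.36 to 2.20, limma adjusted p 0.852) and 0.22 in CCK- cells (SE 0.83, 95% interval -1.56 to 2.00, adjusted p 1). With 1 library left out the difference ran from 0.06 to 0.80 in CCK+ cells. In CCK- cells it turned to -0.60 without fasted A and to -0.51 without refed C. Without the libraries with pancreas or stomach genes it was 0.65 in CCK+ and 0.67 in CCK- cells, and without mouse B 0.06 and 0.29. The Mboat4 intervals are wider than those of Ghrl.

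The interaction of state and sort asks whether refeeding acts differently in the 2 sorts. Limma called 1 of 22042 genes (0.00454%), 0 higher (0%) and 1 lower (0.00454%), while 1378 had an unadjusted p below 0.05. 0 of the 2 listed members were called. Ghrl differed by -0.00027 (95% interval -1.52 to 1.52, limma adjusted p 1) and Mboat4 by 0.20 (95% interval -2.32 to 2.72, adjusted p 0.98). With 1 library left out the Ghrl value ran from -0.58 to 0.42. It was above 0 in 6 of 12 cases and below 0 without CCK+ fasted B, CCK+ refed C, CCK+ refed D, CCK- fasted A, CCK- refed C or CCK- refed E. The Mboat4 value was -0.16 without CCK+ fasted B, -0.55 without CCK- fasted F, -0.25 without CCK- refed D and -0.07 without CCK- refed E. The count called was 5 without CCK+ fasted A, 3 without CCK+ refed E, 2 without CCK- fasted A, 3 without CCK- fasted F, 2 without CCK- refed D and 6 without CCK- refed E. Without the 3 libraries with pancreas or stomach genes it was 18.

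Whether the acyltransferase moves with its substrate was asked of the 6 CCK+ libraries, as log2(Mboat4 + 1) minus log2(Ghrl + 1). It was -8.27, -7.42 and -7.07 in fasted A, B and F and -7.68, -7.06 and -6.96 in refed C, D and E. The refed values lay 0.35 higher on average, and the groups overlapped (exact permutation test, two-sided, p 0.5; 3 against 3 allows no p below 0.1). Without fasted A the difference was 0.01.

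2 further ratios, chosen after the data were seen, set Ghrl against other endocrine genes of the same CCK+ libraries. Against the mean log2 value of the enteroendocrine markers Chga, Chgb, Scg3, Pcsk1 and Neurod1, the difference of refed from fasted was -0.81 (exact permutation test, p 0.2). Against Cck the difference was -0.17 (exact permutation test, p 0.8). The refed CCK+ libraries also had the higher sums of these markers, 167288 to 232238 against 61340 to 139835 when fasted.

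How strongly the sort enriched ghrelin RNA was compared with the other hormone genes within each mouse. Ghrl was 6.10, 6.55, 7.599, 6.22, 6.00 and 7.17 log2 units higher in the CCK+ than in the CCK- library of mice A to F. Mboat4 was 3.24, 0.77, 0.57, 3.06, 1.88 and 0.89 higher in the same mice, a wider spread than that of Ghrl (SD 1.19 against 0.65). Mice A and D, in which Mboat4 differed most, were the ones with CCK- values of 0 and 0.926.

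All 10 hormone genes were called higher in CCK+ cells, against 19.6% of all genes, with a median of 7.11. The mean enrichment was 8.84 for Gip, 8.83 for Gcg, 8.81 for Cck, 8.42 for Nts, 7.38 for Sct, 6.84 for Pyy, 6.61 for Ghrl, 6.25 for Sst, 6.18 for Tph1 and 5.51 for Tac1. Ghrl was enriched less than Cck, the gene whose driver defined the sort. The difference was -2.21 (SD 1.01) and was negative in 6 of 6 mice. A high enrichment of Cck was in part built into the sort, so this direction is not read as a result about Ghrl. Against Gip the difference was -2.23 (SD 1.18), also in 6 of 6. Both gave an exact permutation p of 0.03125, the smallest that 64 sign arrangements of 6 mice allow, and 0.0625 after adjustment over the 4 hormones compared. From Sst and Tph1 Ghrl was not told apart, at 0.36 (exact permutation p 0.25, adjusted 0.333, higher in 4 of 6) and 0.43 (exact permutation p 0.344, adjusted 0.344, higher in 3 of 6). These 4 comparisons were added after the data were seen.

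**Figure D2:**
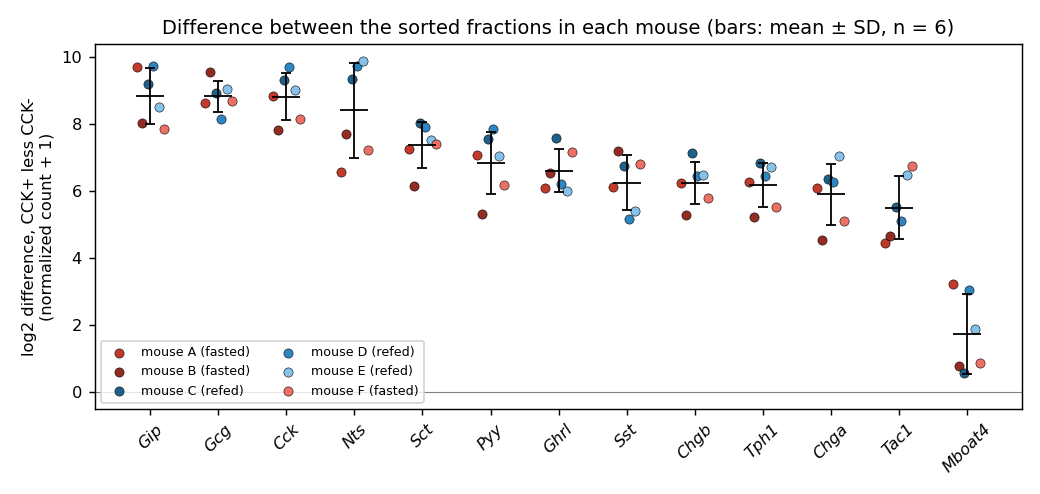
Log2 difference between the CCK+ and the CCK- library of each mouse for 11 hormone or granule genes, Ghrl and Mboat4, with mean and SD of 6 mice. Ghrl sat near Sst and Tph1 and below Cck and Gip, and Mboat4 was lowest with the largest spread relative to its mean.

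Ghsr, the receptor, had no row in the bulk table, from which the authors had removed genes with no count or 1 count over all samples. Of all genes, 19.6% were called higher and 14.1% lower in CCK+ than in CCK- cells. Of 8 genes listed as ligands or signalling partners of the receptor, 2 were higher and 3 lower. Their median log2 difference was -0.14, against 0.09 for all genes. With the mean-sum scaling this median was 0.24, against 0.35 for all genes, and 1 gene was called lower. Called lower as deposited were the G protein gene Gna11 (-0.58), the phospholipase gene Plcb3 (-0.61) and Leap2 (-1.16), and called higher were the arrestin gene Arrb2 (2.82) and Plcb1 (1.48). Mrap2, Gnaq and Arrb1 were not called.

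Leap2, whose peptide blocks the receptor, was 328, 360 and 276 normalized counts in CCK- fasted A, B and F and 749, 664 and 592 in CCK- refed C, D and E. All 3 refed values were above all 3 fasted values, and 13 of the 79 measured pathway-list genes likewise did not overlap in this comparison. The share over all genes is not given here, so this count is not read as a result about Leap2 or the lists. In CCK+ cells Leap2 was 142, 233 and 160 when fasted and 366, 255 and 151 when refed, with overlap.

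The log2 difference of refed against fasted for Leap2 was 1.06 in CCK- cells (SE 0.28, 95% interval 0.47 to 1.65). With an unadjusted p of 0.00181 from limma and an adjusted p of 0.0886 it was not called. Over the alternatives the adjusted p ran from 0.0442, with the mean-sum scaling, to 0.247, and over single libraries left out from 0.0614 to 0.265. In CCK+ cells the difference was 0.47 (adjusted p 0.426), and the interaction of -0.59 was not called (adjusted p 0.807). Between the sorts Leap2 differed by -1.16 (SE 0.20, limma adjusted p 0.0003), at -0.87 in fasted and -1.46 in refed mice, both called lower in CCK+ cells.

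Of 6 receptors of the family to which GHSR belongs, 4 were in the bulk table. Ntsr2, a neurotensin receptor, was called higher in CCK+ cells (2.17, limma adjusted p 0.00866, but 0.0729 without the libraries with pancreas or stomach genes). Gpr39, Trhr and Nmur1 were not called, and Ntsr1 and Nmur2 were not listed. Their median was -0.06.

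Prohormone processing was strongly enriched in the sort that held most Ghrl. Of 11 genes for the maturation and storage of ghrelin and other granule peptides, 10 were higher in CCK+ cells, with a median of 5.91. Of all genes, 19.6% were higher, with a median of 0.09. Furin was not called as deposited and was higher with the mean-sum scaling. Pcsk1, the convertase of proghrelin, averaged 2359 in CCK+ and 94.5 in CCK- libraries (4.62), Scg2 4600 and 14.3 (8.36), Chga 9662 and 148 (5.91), and Chgb 136404 and 1692 (6.24). In refed against fasted CCK+ cells 0 of the 11 passed limma's threshold and the median was 0.66, and in CCK- cells 0 passed and it was -0.10. Chgb differed by 1.11 and was not called (limma adjusted p 0.0814). Between refed and fasted CCK+ libraries, 18 of the 79 measured pathway-list genes, Chgb among them, did not overlap. The share over all genes is not given here, so this count is not read as a result about the lists.

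The acyl group and its removal involve other gene families. Of 10 MBOAT-type acyltransferases other than Mboat4, 9 were in the bulk table. In CCK+ cells 2 were higher and 3 lower, with a median of 0.12; of all genes 19.6% were higher and 14.1% lower. Dgat1 (-0.82), Lpcat3 (-0.78) and Soat2 (-0.87), enzymes of lipid synthesis, were lower, and Mboat2 (4.48) and Soat1 (0.92) were higher. With the mean-sum scaling 4 were higher.

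The acyl-CoA list held 9 genes that make, carry or use medium-chain and longer acyl-CoA, the donors of the acyl group. Of these 9, 1 was higher and 4 were lower in CCK+ cells, with a median of -0.57. Of all genes, 19.6% were higher and 14.1% lower, with a median of 0.09. Acsl4 was higher (2.24), and Acsl5 (-1.20), Slc27a2 (-0.92), Crot (-1.15) and Acadm (-0.70) were lower, although Acadm was no longer called with the mean-sum scaling, where 2 were higher and 3 lower. Acsl1 averaged 984 in CCK+ and 1461 in CCK- cells, and its difference of -0.57 was not called (limma adjusted p 0.0528). Of 6 enzymes proposed to remove the acyl group, 2 were higher and 2 lower, against 19.6% and 14.1% of all genes, with a median of 0.22. Bche (-1.01) and Lypla1 (-0.81) were lower, and Pafah1b2 (0.65) and Lypla2 (1.24) were higher, and with the mean-sum scaling 3 were higher.

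Receptors reported on ghrelin cells or on related endocrine cells were mostly enriched. Of 17, 13 were higher and 0 lower in CCK+ than in CCK- cells, with a median of 3.64. Of all genes, 19.6% were higher and 14.1% lower. The fatty acid receptor Ffar1 averaged 397 against 10.2 (5.18), Ffar2 218 against 4.36 (5.598) and the somatostatin receptor Sstr1 134 against 1.38 (5.95). Not called were Adrb1, Sctr, Calcrl and Insr. Of the endocrine transcription factors, Neurod1 (6.28), Etv1 (8.12), Pax6 (4.07), Rfx6 (6.56) and Isl1 (6.59) were called higher in CCK+ cells.

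Feeding state was then asked of these lists. Over the 9 pathway lists, 79 of 83 genes were in the bulk table. Limma called 0 higher and 1 lower on refeeding in CCK+ cells, with 21 at an unadjusted p below 0.05, and 0 higher and 1 lower in CCK- cells, with 9 at that level. Over all genes the share called was 2.55% in CCK+ and 1.23% in CCK- cells. For the interaction it called 0 of the list genes, with 6 at that level. Of the 9 hormone genes other than Ghrl 0 were called on refeeding in either sort, with 4 at an unadjusted p below 0.05 in CCK+ and 2 in CCK- cells.

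The gene called in CCK+ cells was Insr, the insulin receptor. It was 1190.1, 2129 and 1539 in fasted A, B and F and 939, 714 and 792 in refed C, D and E, without overlap. The log2 difference was -0.96 (SE 0.19, limma adjusted p 0.0191). The call was lost without CCK+ fasted B (0.0756), CCK+ fasted F (0.0687), CCK+ refed D (0.126) or CCK+ refed E (0.101), and with the other alternatives the adjusted p ran from 0.0157 to 0.196. In CCK- cells it was -0.63 (adjusted p 0.156).

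The gene called in CCK- cells was Pdk4, a kinase that restrains glucose oxidation and is known to respond to fasting. It was 1027, 2147 and 1530.1 in fasted A, B and F and 473, 507 and 468 in refed C, D and E, without overlap (-1.64, SE 0.30, limma adjusted p 0.0188). Leaving out 1 library lost the call in 10 of 12 cases, with adjusted p from 0.0125 to 0.128, and kept it without CCK+ fasted B (0.0125) or CCK- fasted A (0.0337), and over the other settings the adjusted p ran from 0.0113 to 0.223. In CCK+ cells Pdk4 differed by -1.18 and was not called (limma adjusted p 0.0581). Its adjusted p was 0.0602 to 0.216 with 1 library left out. Over the other settings it was 0.0478, with only genes of a mean of at least 10, to 0.264. Angptl4, which also responds to fasting, differed by -1.79 and was not called (limma adjusted p 0.0922). With 1 library left out its difference ran from -2.39 to -1.15 and its adjusted p from 0.0477, without CCK+ fasted A, to 0.351. Over the other settings the adjusted p was 0.0756 to 0.323.

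Medians of refed against fasted for 7 of the lists, in CCK+ and then CCK- cells, were 0.38 and -0.21 for the hormones, -0.14 and -0.24 for deacylation, -0.18 and -0.16 for the ligands and partners of Ghsr, 0.05 and 0.00 for its family, -0.49 and -0.08 for the MBOAT family, -0.12 and -0.05 for acyl-CoA and 0.47 and -0.24 for the receptors, against 0.01 and 0 for all genes. With the mean-sum scaling the median of all genes moved to 0.20 in CCK+ and 0.01 in CCK- cells. The CCK+ medians of 3 of these lists then changed sign, to 0.08 for deacylation, 0.03 for the ligands and partners and 0.10 for acyl-CoA. These 3 lay below the median of all genes in both scalings, so the change of sign is not read as a result about the lists. The CCK- median of acyl-CoA changed to 0.03. Under the other scalings a few single calls were added: in CCK+ cells 1 hormone, 1 acyl-CoA gene and 1 receptor became called higher, and in CCK- cells Leap2 and 1 acyl-CoA gene.

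Marker genes show what else the sorted fractions held. Of all genes, 19.6% were called higher and 14.1% lower in CCK+ than in CCK- cells. Between CCK+ and CCK- cells, 5 of 5 enteroendocrine markers were higher (median 6.06) and 3 of 3 of enterochromaffin cells (5.91), besides Cck, Gip and Sst. 9 of 9 immune genes were higher as well (3.22), with Gzma at 2567 against 259.9, so the CCK+ fraction also held RNA of immune genes. 6 of 8 enterocyte genes were lower and 0 higher (-1.13), and 0 of 5 Paneth (0.34), 0 of 4 tuft (-0.57) and 0 of 4 stromal genes (-0.06) were called, though 1 stromal gene was higher with the mean-sum scaling. Of 7 goblet genes 1 was higher, Agr2, and 2 were lower (-0.02). With the mean-sum scaling 3 were higher and 0 lower, while the share higher among all genes called went from 58.2% to 84.1%.

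Of genes expressed by enteric neurons, Snap25 (5.76), Ret (4.45) and Elavl3 (2.12) were higher in CCK+ cells, but Snap25 and Ret are also expressed by endocrine cells, and Hand2 was not listed. Of 2 measured glial genes 1 was higher (0.50). Of 3 measured stomach genes 1 was higher (-0.71), namely Pgc (232 against 3.12), and 0 of 3 pancreas genes were called (1.345). Their part in the Ghrl and Mboat4 results was not tested. Over the 16 marker lists, with 62 genes measured besides Ghrl, refed against fasted called 1 higher and 1 lower in CCK+ cells and 1 higher in CCK- cells, where 2.55% and 1.23% of all genes were called. The enterocyte gene Lct was called lower in CCK+ cells (-0.96, limma adjusted p 0.046), the neuronal gene Elavl3 higher in CCK+ cells (2.95, adjusted p 0.0372) and Agr2 higher in CCK- cells (1.00, adjusted p 0.0297). Leaving out 1 library lost the Lct call in 11 of 12 cases (adjusted p 0.0259 to 0.190, kept without CCK+ refed C), the Elavl3 call in 11 of 12 (0.0199 to 0.135, kept without CCK+ fasted A) and the Agr2 call in 10 of 12 (0.0175 to 0.157, kept without CCK+ fasted B or CCK+ refed E). Over the other settings Lct lost the call in 7 of 8, including both other scalings (0.0321 to 0.273), Elavl3 in 4 of 7 (0.00311 to 0.200) and Agr2 in 5 of 8 (0.0228 to 0.192).

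The droplet library counted unique molecular identifiers (UMIs), 1 for each captured RNA molecule. Of 475960 barcodes with a UMI, 10381 had more than 1000 genes, and 9451 of these had less than 10% of their UMIs on mitochondrial genes and were kept as cells. They held 66245278 UMIs, with a median of 5984 (1754 to 65130) and 1587 genes per cell. With 1 library there is no test. Intervals are 95% and cover counting error only, exact Poisson for levels and Clopper-Pearson for shares of cells, and a count of 0 allows up to 3 counts.

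Cells were grouped by UMIs per 10000 of their own total. 137 cells had Ghrl of at least 1500, 774 had Ghrl of 100 to 1500, 1246 had Cck of at least 500, 255 had Gip or Sst of at least 500 and 2760 had Tph1 of at least 10. The groups overlap: 686 of the 774 cells with Ghrl of 100 to 1500 also had Cck of at least 500, against 14 of the 137, and 121 of the 137 were in no other group. The remaining 5369 cells were in none. Median UMIs per cell were 7319, 6310.5, 6296, 5956 and 3366 in the 5 groups and 7462 in the remaining cells.

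Ghrl chose the first groups, so its level there is a description. Ghrl took 36.0% of all UMIs in the 137 cells, or 3598 per 10000, from 1514 to 7128 in a cell with a median of 3588. These 137 cells held 59.0% of the Ghrl UMIs of all kept cells, and the 774 cells held 31.8%. Just inside the upper threshold lay cells at 1514, 1525 and 1531, and just outside it cells at 1479, 1451 and 1449, with 18 cells within 10% of it. At the lower threshold the nearest cells were at 100.1 and 99.9, and 66 cells lay within 10%.

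In the groups chosen on other genes, some of whose cells also lie in the Ghrl groups, Ghrl was 250.2 per 10000 with Cck of at least 500, 90.5 with Gip or Sst of at least 500 and 46.8 with Tph1 of at least 10. In the cells of each that were in no other group it was 34.2, 12.2 and 9.69, and in the remaining cells 7.80. These cells all have Ghrl below 100 by the grouping rule, so the 4 levels are capped by it and are a description. Barcodes of 1 to 100 UMIs, taken as free RNA, held Ghrl at 60.8 per 10000, and 98.6% of the remaining cells had a Ghrl UMI. A Ghrl UMI by itself therefore did not mark a ghrelin cell in this library. The 60 cells with Sst of at least 500 had Ghrl at 359.7 per 10000, and 42 of them lay in the group of 100 to 1500, whereas the 197 cells with Gip of at least 500 had 22.4.

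**Figure D3:**
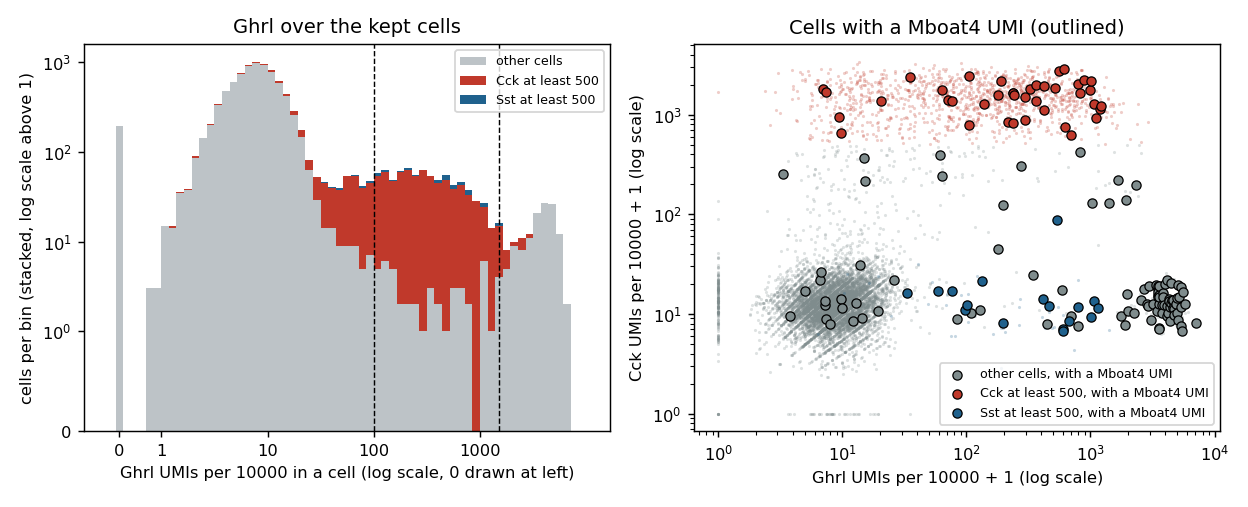
Left, number of kept cells by Ghrl UMIs per 10000 (log scales), stacked by Cck and Sst, with dashed lines at 100 and 1500. Right, Ghrl against Cck in each kept cell, UMIs per 10000 plus 1 on log axes, with the cells that had a Mboat4 UMI outlined; of these 154 cells 62 had Ghrl of at least 1500, 57 had Ghrl of 100 to 1500 and 40 had Cck of at least 500.

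Mboat4 was sparse, with 199 UMIs in 154 kept cells and 253 UMIs over all barcodes. The 137 cells with Ghrl of at least 1500 had 91 of these UMIs, or 0.866 per 10000 (0.697 to 1.06), and the 774 cells with Ghrl of 100 to 1500 had 73, or 0.140 (0.109 to 0.176). Cells with Gip or Sst of at least 500 had 0.122 (0.0743 to 0.188), cells with Cck of at least 500 had 0.0498 (0.0357 to 0.0676), cells with Tph1 of at least 10 had 0.0193 (0.0121 to 0.0293) and the remaining cells had 0.00327 (0.00183 to 0.00539). Free RNA had 0.0149 (0.00308 to 0.0437), from 3 UMIs. In this order, intervals of neighbours overlapped only for the groups at 0.140 and 0.122, and the interval of free RNA overlapped those of the Tph1, Cck and remaining cells.

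These groups share cells. With only the cells in 1 group, the Mboat4 order was the same but some levels moved. Cells with Ghrl of at least 1500 then had 0.952 per 10000 (0.765 to 1.17) and those with Ghrl of 100 to 1500 had 0.503 (0.303 to 0.786), with overlapping intervals. The latter were 36 cells with a median of 10544 UMIs, and 11 of them (30.6%) were among the highest doublet scores, against 7.597% of all kept cells. Cells with Gip or Sst had 0.04998 (0.0162 to 0.117), those with Cck 0.0360 (0.0165 to 0.0683) and those with Tph1 0.00642 (0.00235 to 0.0140), and the intervals of Gip or Sst and Cck, and those of Tph1 and the remaining cells, overlapped.

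Counted per cell, 62 of the 137 cells with Ghrl of at least 1500 had a Mboat4 UMI, 45.3% (36.7 to 54.0), at a median of 7319 UMIs. The share was 7.36% with Ghrl of 100 to 1500, 7.06% with Gip or Sst, 3.21% with Cck, 0.616% with Tph1 and 0.279% (0.156 to 0.460) in the remaining cells, at a median of 7462 UMIs. With each cell thinned to 2000 UMIs the shares were 19.0% (12.8 to 26.6), 2.58%, 1.04% for Cck and 0.130% for the remaining cells, so the order of these groups was the same at equal depth. The 62 cells with Mboat4 had a median of 7554.5 UMIs and of 3830 Ghrl UMIs per 10000, and the 75 without had 7246 and 3402.

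Mboat4 was also read along steps of Ghrl. From Ghrl below 10 per 10000 through steps beginning at 10, 30, 100, 300, 1500, 3000 and 4500, Mboat4 was 0.00341, 0.00655, 0.0489, 0.0869, 0.199, 0.478, 1.03 and 1.11 per 10000, in 5757, 2443, 340, 402, 372, 45, 57 and 35 cells. Each step was above the step before. The intervals were apart for the steps beginning at 10 and 30, at 100 and 300, and at 300 and 1500, and they overlapped for the other neighbours. The share of cells with a Mboat4 UMI was 28.9%, 54.4% and 51.4% at the last 3 steps, and 11.1%, 28.1% and 14.3% after thinning, so it did not increase at the last step. The steps were chosen after the data were seen.

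The group with Ghrl of 100 to 1500 was not uniform, in a split made after the data were seen. Its 686 cells with Cck of at least 500 had Mboat4 at 0.0705 per 10000 (0.0483 to 0.0996) and its 88 cells below that level had 0.594 (0.426 to 0.806), with a Mboat4 UMI in 4.52% and 29.5% of cells. The median Ghrl of these parts was 287 and 381. In the 60 cells with Sst of at least 500, of which 42 are among these 88 cells and hold 15 of their 41 Mboat4 UMIs, Mboat4 was 0.552 (0.332 to 0.861), with a UMI in 28.3% of cells (17.5 to 41.4). Of the 197 cells with Gip of at least 500, 1 UMI of Mboat4 was counted.

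Per 100000 Ghrl UMIs, Mboat4 was 24.1 (19.4 to 29.5) in cells with Ghrl of at least 1500, 18.3 (12.5 to 25.9) in the Cck part of the middle group and 24.6 (5.07 to 71.9) in free RNA, with overlapping intervals. It was 141 (101 to 192) in the part with Cck below 500 and 153 (92.3 to 239.6) in cells with Sst of at least 500. In cells with Ghrl below 100 it was 72.3 (33.1 to 137) with Cck and 249 (80.7 to 581) with Gip or Sst, and it was 41.9 (23.5 to 69.2) in the remaining cells. Since Ghrl is the denominator and also chose the groups, a lower ratio with more Ghrl comes in part from the choice, and the ratios are a description only. The 718 highest doublet scores fell on 15 of the 137 cells, 18 of these 88 and 3 of these 60.

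**Figure D4:**
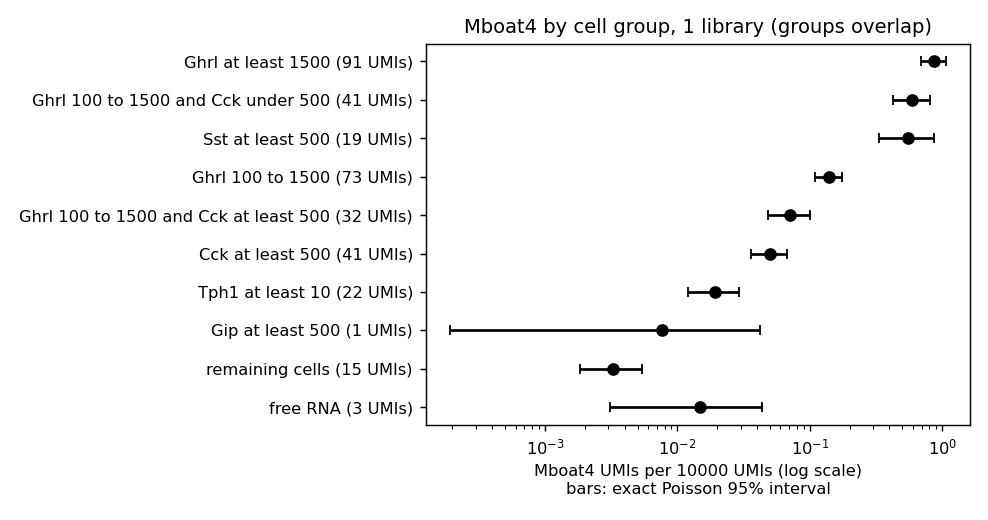
Mboat4 UMIs per 10000 UMIs (log axis) in groups of cells of the droplet library, with exact Poisson 95% intervals and UMI counts in brackets; groups overlap. Levels ran from 0.866 in cells with Ghrl of at least 1500 to 0.00327 in the remaining cells, with free RNA at 0.0149.

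Ghsr was in the droplet reference but had 0 UMIs in all 475960 barcodes. Over all kept cells together a count of 0 allows up to 0.0453 UMIs per 1000000, or 0.000453 per 10000. The bound is looser in small groups. It is 0.0285 per 10000 in the 137 cells with Ghrl of at least 1500. In the 60 cells with Sst of at least 500 it is 0.0871 per 10000. Ghsr RNA was thus not detectable at this depth in any group, and the same was found for its relatives Ntsr1, Nmur1, Nmur2 and Trhr, for Mrap2, a partner of the receptor, and for Hhatl, a relative of Mboat4. Leap2 had 3 UMIs in the 137 cells with Ghrl of at least 1500, 0.0285 per 10000 (0.00589 to 0.0834), and 1074 in the remaining cells, 0.234 (0.220 to 0.249), near its level in free RNA of 0.229 (0.168 to 0.306).

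Among acyl-CoA genes, Acsl1, a long-chain acyl-CoA synthetase, stood out in the cells with Ghrl of at least 1500. It was 5.34 per 10000 there (4.90 to 5.80), against 0.251 (0.210 to 0.297) with Ghrl of 100 to 1500, 0.188 (0.160 to 0.220) with Cck, 0.192 (0.168 to 0.220) with Tph1, 0.123 (0.113 to 0.134) in the remaining cells and 0.115 (0.0726 to 0.172) in free RNA. The 9 genes of this list summed to 6.87 per 10000 in those cells and to 2.45, 2.35, 3.18 and 3.13 in the middle Ghrl, Cck, Tph1 and remaining cells. Apart from Acsl1 no gene of the list had an interval wholly above that of the remaining cells. Acsl1 in bulk, by contrast, was not called between the sorts.

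Among receptors, Adrb1, the adrenergic receptor through which noradrenaline is known to release ghrelin, had 16 UMIs in the 137 cells, 0.152 per 10000 (0.0870 to 0.247). It had 1 UMI in the 774 cells with Ghrl of 100 to 1500, 0.00191 (4.8e-05 to 0.0107), 0.00486 (0.00132 to 0.0124) in cells with Cck and 0.00174 (0.000753 to 0.00344) in the remaining cells. In bulk, Adrb1 averaged 19.5 in CCK+ and 25.01 in CCK- libraries and ranged from 0.255 to 49.4. Ffar1 went the other way, at 0.0761 (0.0329 to 0.150) in the 137 cells and 1.102 (1.01 to 1.196) in the 774.

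Of the transcription factors, Isl1 was 4.58 (4.18 to 5.00), 1.72 (1.61 to 1.83), 1.339 (1.26 to 1.42) and 0.0573 (0.0506 to 0.0647) per 10000 in cells with Ghrl of at least 1500, with Ghrl of 100 to 1500, with Cck and in the remaining cells, and 5.43 (4.68 to 6.27) in Sst cells. Etv1, Pax6 and Neurod1 were lower in the 137 cells than in the Cck group, at 0.656, 0.190 and 4.16 against 1.88, 0.809 and 8.93.

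Genes of peptide processing were compared with free RNA, which had Pcsk1 at 0.593 per 10000, Cpe at 1.91 and Pam at 0.981. Pcsk1 was 3.54 in the cells with Ghrl of at least 1500 (3.19 to 3.92), 2.85 (2.71 to 2.999) with Ghrl of 100 to 1500, 2.90 (2.78 to 3.02) with Cck and 3.96 (3.84 to 4.07) with Tph1, and Pcsk2 had 3 UMIs in the 137 cells. Cpe was 9.82, 12.02, 13.5 and 5.26 in these groups, and Pam, which amidates peptides, was 3.46 (3.12 to 3.84) against 2.18 (2.06 to 2.31) with Ghrl of 100 to 1500. Chgb was 21.7, 66.4, 85.01 and 272, and 10.2 in the remaining cells and 36.1 in free RNA, so in the 137 cells it lay below free RNA. Since Ghrl took 36.0% of the UMIs of the 137 cells, every other gene there is counted from the smaller share left.

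**Figure D5:**
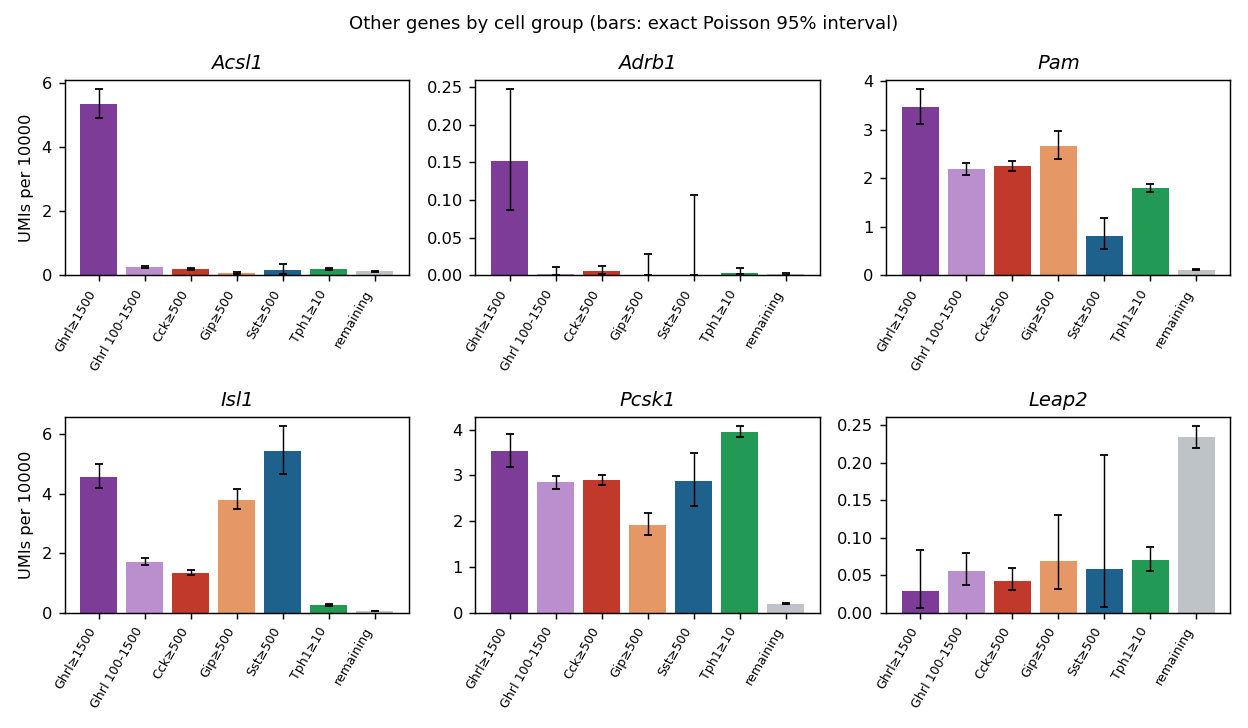
UMIs per 10000 of Acsl1, Adrb1, Pam, Isl1, Pcsk1 and Leap2 in 7 groups of cells, with exact Poisson 95% intervals. Acsl1 and Adrb1 were highest in cells with Ghrl of at least 1500 and low in the other groups, whereas Leap2 was highest in the remaining cells.

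Other hormones in the 137 cells were low for most cells. Cck was 127 per 10000 as a sum with a median of 12.8 in a cell, Sct was 149 with a median of 52.7, Gip was 7.37 and Sst was 0.742. Free RNA had Cck at 111, Sct at 171, Gip at 67.6 and Sst at 9.21. Gip and Sst, and Cck and Sct at the median cell, thus lay below free RNA. Since Ghrl took 36.0% of the UMIs of the 137 cells, the direction of the Sct sum was not read. Sums of marker lists in the 137 cells were 507 for 7 goblet, 43.3 for 5 Paneth and 10.2 for 8 enterocyte genes, against 1550.3, 564 and 70.2 in the remaining cells and 1389, 346 and 56.9 in free RNA. Pancreas and stromal genes had 0 UMIs, and tuft, immune, glia and stomach genes summed to 0.295, 0.200, 0.0190 and 0.0285.

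Over all 9451 cells, on log(1 + UMIs per 10000) and among 11118 genes with at least 100 UMIs, the 5 genes most like Ghrl were Scg2 (Pearson r 0.65), Rbp4 (0.63), Cck (0.60), Scgn (0.52) and Cpe (0.50), and Mboat4 came at rank 41 (0.33). Most like Mboat4 were Maged2 (0.38), Fxyd2 (0.37), Plb1 (0.34), Ghrl (0.33) and Gper1 (0.31). The cells share 1 library and differ in depth, and counts of Mboat4 are sparse, so these are descriptions. Scg2 and Cck were higher in the 774 cells with Ghrl of 100 to 1500 than in the 137, and Scgn was lower, at 1.58 against 3.49 per 10000. Rbp4 and Cpe were closer, and since Ghrl takes a larger part of the total in the 137 cells their direction was not read. In the 137 cells against the 774, Maged2 was 8.14 against 0.702 per 10000, Fxyd2 3.46 against 0.151, Plb1 1.33 against 0.0957 and Gper1 1.38 against 0.0402.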

How the data were processed

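Members and gene lists were chosen with earlier results of these data known. In the bulk table, the signal values deposited by the authors are gene counts (Trim Galore 0.6.7, Salmon 1.6.0 on GRCm39 transcripts, tximeta) divided by DESeq2 normalization factors, for 12 libraries. The droplet counts deposited by the authors are UMIs per gene and barcode from Cell Ranger 2.0.1 on mm10, unnormalized. The pulse-traced cells of the study were not used here.

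Bulk tests used limma 3.58.1 in R 4.3.3 with the package data.table, version 1.17.8, on log2(value + 1), 1 mean per group, a mean-variance trend, and Benjamini-Hochberg adjustment over 22042 genes; the procedure was tested on simulated data. Ratios and enrichment differences used two-sided exact permutation tests. Libraries with the same letter were taken as 1 mouse. After subtraction of group means, correlations over genes were taken between CCK+ and CCK- libraries of the same feeding state. They were 0.0463 to 0.0650 for the 6 same-letter pairs and -0.0455 to -0.00973 for the 12 others. Subtracting group means pushes the other pairs below 0 when the same-letter pairs lie above it, so this contrast is in part built in.

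For the droplet counts, scanpy 1.11.5, pandas 2.3.3, scipy 1.17.1 and numpy 2.4.6 were run under Python 3.11.15, and plots used matplotlib 3.10.9. Scrublet called no doublets and was treated as not having worked, so no cell was removed as a doublet; an alternative left out the 7.6% of cells with the highest scores.

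Named genes were the members, the hormone genes, up to 4 of the most abundant genes of each list, and the 5 genes most like Ghrl and Mboat4. Other genes of these lists were named after their values were seen. Alternatives varied the pseudocount (5), a mean filter (10), scaling, trend, mouse block, libraries left out, cell filters (500 or 1500 genes, 5% mitochondrial UMIs), the Ghrl threshold (1000, 2000), overlaps, doublets, the UMIs needed and depth. Added after the data were seen were the mean-sum scaling, leaving out the libraries with pancreas or stomach genes or mouse B, the splits of cell groups, the Ghrl steps, and the ratios and enrichment differences described so. Some results of the gene lists are not reported here.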

Additional observations from a re-analysis of the deposited data

Results flagged for a closer look

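Gvin1, a large interferon-inducible GTPase gene, was the only gene for which limma, with all 12 libraries, called refed against fasted different between CCK+ and CCK- cells; without the 3 libraries with pancreas or stomach genes 18 genes were called. Its log2 difference in CCK+ less that in CCK- cells was -6.55 (SE 0.54, limma adjusted p 0.000161). The CCK+ libraries held 107, 320.2 and 384 normalized counts in fasted A, B and F and 476, 468 and 499 in refed C, D and E. The CCK- libraries held 0 in all 3 fasted mice and 219, 196 and 159 in the refed mice. Since 1 group was at 0, the size depends on the pseudocount, and with a pseudocount of 5 it was -4.27 (adjusted p 0.0358). It was not called with libraries scaled to a sum of 1000000 (-3.08, adjusted p 0.149) or without mouse B (-6.33, adjusted p 0.0618). Over these and the other settings the adjusted p ran from 0.000106 to 0.149, and with 1 library left out from 7.6e-06 to 0.0337. Gene copies close to Gvin1 exist, and how reads were shared among them was not tested. Neither Ghrl nor Mboat4 was called in this comparison.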

How the results depend on the processing

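Of 1094 recomputed values for bulk genes, 975 kept their direction and side of the threshold, 89 lost and 3 gained a call, and 27 changed direction; of 136 droplet values, 96 lay within the 95% interval of the value reported, or within 1.5 times it for numbers of cells, and 40 did not. Ghrl between the sorts was called in all. Genes called in refed against fasted CCK+ cells were 992 with the sum of 1000000, 119 without the trend, 0 with only the 6 CCK+ libraries, 258 without the libraries with pancreas or stomach genes, 127 without mouse B, and 103 to 876 with 1 library left out. In CCK- cells they were 66 without the trend, 63 with only those 6 libraries, 60 without the pancreas or stomach libraries, 85 without mouse B, and 79 to 268. For the interaction they were 0 with the sum of 1000000, 2 without the trend and 18 without the pancreas or stomach libraries. They were 0 without mouse B, and 1 to 6 with 1 library left out. Between the sorts they were 6520 to 7618 with 1 library left out and 5389 to 7743 over the other settings. With mouse as a block, 7671 genes were called between the sorts and 1 for the interaction. Not called in any, but reversed, were Ghrl refed against fasted in CCK+ cells without mouse B (-0.38; -0.38 to 0.45 over single libraries), Ghrl in CCK- cells without mouse B (-0.35) or the pancreas or stomach libraries (-0.20; range -0.35 to 0.65), Mboat4 in CCK- cells (-0.60 to 0.97), the Ghrl interaction with pseudocount 5 (0.0376), the sum of 1000000 (0.24), the mean sum (0.15) or without the pancreas or stomach libraries (0.98; range -0.58 to 0.42), and the Mboat4 interaction without those (-0.0191) or mouse B (-0.23; range -0.55 to 1.02). The difference of refed from fasted in the ratio of Mboat4 to Ghrl ranged from 0.01 to 0.61 with 1 CCK+ library left out. Mboat4 with Ghrl of 100 to 1500 was 0.503 per 10000 in the 36 cells of that group alone, and the share with Mboat4 at Ghrl of at least 1500 was 15.3% at 2 UMIs or more and 19.0% after thinning, both stricter by construction; otherwise the cause was not tested. A mean filter of 10 dropped Mboat4, so no value exists there. With 1 library left out, a group of 2 is assumed to vary like the others. Mboat4 was near the limit of the values in both data sets and Ghsr was detected in neither. Whether more depth would change this was not tested.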
